A study of Mus musculus with 14 samples.

Results

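The miR-30 family was followed across sorted cell populations of the mouse small intestinal epithelium. Its members were taken by name, as the 5p entries at the annotated start of the mir-30a, mir-30b, mir-30c, mir-30d and mir-30e hairpins. This gave 6 of the 2030 entries in the deposited table, or of the 534 entries at an annotated start: mmu-mir-30a-5p, mmu-mir-30b-5p, mmu-mir-30c-1-5p, mmu-mir-30c-2-5p, mmu-mir-30d-5p and mmu-mir-30e-5p. The 2 miR-30c entries are hairpin copies of 1 mature miRNA. Their values were identical in 10 of 14 libraries and differed by at most 0.56 RPM (the unit of the table, explained below) elsewhere, so miR-30c was counted once, through mmu-mir-30c-2-5p, and the family has 5 distinct members. All 6 entries passed the filter on low values.

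The mice were C57BL/6J and carried a Sox9-eGFP reporter, a transgene whose green fluorescence follows Sox9, a transcription factor of intestinal crypts. All 5 groups come from this background: cells sorted as High, Low, Sublow and Negative for eGFP (3 libraries each) and Non-sorted cells (2 libraries). In this reporter line, Low is known as the stem cell gate and High as the gate that holds enteroendocrine cells. Sublow is described as enriched for dividing progenitors, and Negative as mainly mature epithelium, although the sort is by reporter brightness and not by identity. Small RNA was sequenced, and each value is the number of reads in 1e+06 miRNA reads (RPM), so it is a share of the library's miRNA and not an amount per cell. The labels give neither the age of the mice nor whether libraries of a group came from separate animals, and the p-values below measure only the spread between these libraries.

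MicroRNAs are short RNAs that guide repression of messenger RNAs, chiefly through pairing of the seed, bases 2 to 8 from the 5′ end. Each hairpin precursor can give a 5p and a 3p strand, of which usually one is the more abundant. The miR-30 5p strands share a seed, and in intestinal epithelial cell models the family is known to repress SOX9 and genes of the ubiquitin ligase pathway. Entries that begin at another base than the annotated one have a shifted seed.

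The mature sequences show what the members share and where they differ. RefSeq sequences (GRCm38.p6) matched 4 of the 6 hairpin genes, those of miR-30a, both miR-30c copies and miR-30e. The 5p strands are given 5′ to 3′ with the seed in capitals.

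miR-30a-5p: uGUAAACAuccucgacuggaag

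miR-30e-5p: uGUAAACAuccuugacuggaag

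miR-30c-5p: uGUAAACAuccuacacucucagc

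All 3 carry the seed GUAAACA. Counted from 1 at the 5′ end, miR-30a and miR-30e differ by 1 substitution over 22 positions, C13U (miR-30a first). miR-30a and miR-30c differ by 5, namely C13A, G14C, G18C, G19U and A20C. The 4 opposite strands with a sequence in the table fall into 2 seed groups and are shown with the seed in capitals.

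miR-30a-3p: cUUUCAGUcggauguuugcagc

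miR-30e-3p: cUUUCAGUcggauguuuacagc

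miR-30c-1-3p: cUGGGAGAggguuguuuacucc

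miR-30c-2-3p: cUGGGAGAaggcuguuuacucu

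The 3p strands of miR-30a and miR-30e share the seed UUUCAGU, and those of both miR-30c hairpins share UGGGAGA. In GRCm38.p6, the hairpins of miR-30a (chr1:23272269-23272339) and miR-30c-2 (chr1:23291701-23291784) lie on the plus strand with 0 genes between them. Those of miR-30c-1 (chr4:120769534-120769622) and miR-30e (chr4:120772606-120772697) lie on the minus strand, also with 0 genes between them. The latter pair is intronic in Nfyc, a subunit gene of the transcription factor NF-Y, and the miR-30c-2 hairpin overlaps an exon of the long noncoding RNA gene Gm27028. Mir30b and Mir30d are likewise neighbours with 0 genes between them. The deposited values were made on mm9, and no coordinate of that build is used here.

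Some facts of the whole series bear on the values. Depth, estimated from the steps between low values, ran from 1.89 to 16.4 per library in units of 1e+06 reads (median 4.99). The lowest member in a library rested on about 262 to 2503 reads. The search for these depths allowed only a narrow range around 10 reads behind the smallest listed value of a library. The depths and read numbers therefore rest on that assumed range. Under it, a value of 0 means fewer than about 10 reads. Enteroendocrine markers (miR-375, miR-7a and miR-7b, 3 of 3 listed) summed to 151003 to 172443 RPM in High, 82016 to 106946 RPM in Low, 24003 to 25588 RPM in Sublow and 2551 to 3634 RPM in Negative. The villus markers (miR-194 and miR-215, 2 of 2 listed) summed to 42861 to 54755 RPM in High and 50859 to 61395 RPM in Low. They summed to 275057 to 311757 RPM in Sublow and 447708 to 451416 RPM in Negative. Both are also part of the share of miR-192, miR-194 and miR-215 given below, so these are not separate observations. Markers of other tissues were low in all libraries: 5 of 6 mesenchymal markers were listed and summed to 19.4 to 95.7 RPM, and 5 of 5 haematopoietic markers to 6.51 to 213 RPM. All 3 erythroid markers reached at most 38.3 RPM and both endothelial markers at most 17.1 RPM. In each population, 1 mesenchymal, 1 to 3 haematopoietic and 2 erythroid markers were at 0 in all its libraries. The haematopoietic sum was highest in Low (42.4 to 213 RPM), and its part in the Low values was not tested.

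The scale itself moves with the populations. The miRNAs miR-192, miR-194 and miR-215, abundant in absorptive epithelium, took 17.8% ± 1.59 (SD, n = 3) of the library in High, 20.7% ± 1.51 (n = 3) in Low, 44.5% ± 1.02 (n = 3) in Sublow and 59.9% ± 0.172 (n = 3) in Negative. Whatever fills a library lowers the share of everything else, so each member that passed in RPM was also tested after median-ratio rescaling, after quantile normalization and with the total without these 3 miRNAs as the denominator. Median-ratio rescaling moved the median log2 difference over all entries by 0.32 in High minus Low, 0.39 in Sublow minus Low, 0.84 in Negative minus Low and -0.52 in High minus Negative. Lane labels are a second such factor. In the labels, 2 High and 2 Low libraries carry the word Combo where the others carry a sample number, and what it stands for is not given. Their lane code is 0, which was treated as a lane of its own. High shares no lane with Sublow, Negative or Non-sorted, so lane and population cannot be told apart directly in those comparisons.

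The family as a whole was a larger share of the library in High and Low than in Sublow and Negative on the RPM scale, but not over the reads outside miR-192, miR-194 and miR-215. Its 5 members summed to 2.08% ± 0.0708 (SD, n = 3) of miRNA reads in High, 2.31% ± 0.156 (n = 3) in Low, 1.53% ± 0.207 (n = 3) in Sublow, 1.15% ± 0.22 (n = 3) in Negative and 1.13% ± 0.0509 (n = 2) in Non-sorted. No High or Low library (lowest 2.01%) overlapped with a Sublow library (highest 1.70%). As a share of the total without those 3 miRNAs, a denominator added after the RPM values were seen, the family took 2.54% ± 0.0628 in High, 2.90% ± 0.149 in Low, 2.77% ± 0.40 in Sublow and 2.88% ± 0.558 in Negative (SD, n = 3 each), and only High and Low did not overlap. In bulk populations, fewer cells of a type and less RNA per cell cannot be told apart.

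miR-30d was the most abundant member in every library and ranked 16th to 27th of the 534 annotated entries. It measured 15516, 13886 and 14183 RPM in High, 15691, 13050.4 and 15820.2 RPM in Low, 9046, 7580.3 and 10075 RPM in Sublow, 5307, 5657 and 7299.7 RPM in Negative, and 6282 and 5786 RPM in Non-sorted. The High and Low libraries overlapped each other, all lay above the Sublow libraries, and all Sublow libraries lay above the Negative ones.

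miR-30a came next in High, Low and Sublow. It measured 2969, 3375 and 2831 RPM in High, 3948, 4239 and 4210.1 RPM in Low, 3273, 2926 and 3529 RPM in Sublow, 2097, 2004 and 2643 RPM in Negative, and 2292 and 2077 RPM in Non-sorted. Its Low libraries were the highest, High and Sublow overlapped, and the Negative and Non-sorted libraries were the lowest.

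miR-30e, which differs from miR-30a by a single base, had another order. It measured 2121, 2838 and 2194 RPM in High, 3067, 3029.8 and 3073 RPM in Low, 2689.9, 1806 and 2346 RPM in Sublow, 2256, 2037 and 3257 RPM in Negative, and 2506 and 2309.6 RPM in Non-sorted. The ranges of High, Sublow and Negative overlapped, and the highest single value, 3257 RPM, was the third Negative library, above all Low libraries.

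miR-30c lay below miR-30a, miR-30d and miR-30e in every library. It measured 649.9, 717 and 687 RPM in High, 909, 808 and 879 RPM in Low, 971, 643 and 930.2 RPM in Sublow, 509, 535 and 795 RPM in Negative, and 489 and 690.4 RPM in Non-sorted. Sublow spread over most of the range of the other populations, while Low was above every High and Negative library.

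miR-30b was the least abundant member, at rank 101 to 132. It measured 186, 191.6 and 163 RPM in High, 158, 146 and 144 RPM in Low, 88.25, 58.8 and 77.1 RPM in Sublow, 58.9, 59.9 and 79.7 RPM in Negative, and 87.2 and 73.1 RPM in Non-sorted. It was the only member whose High libraries all lay above all Low libraries, and its Sublow and Negative libraries overlapped.

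**Figure D1:**
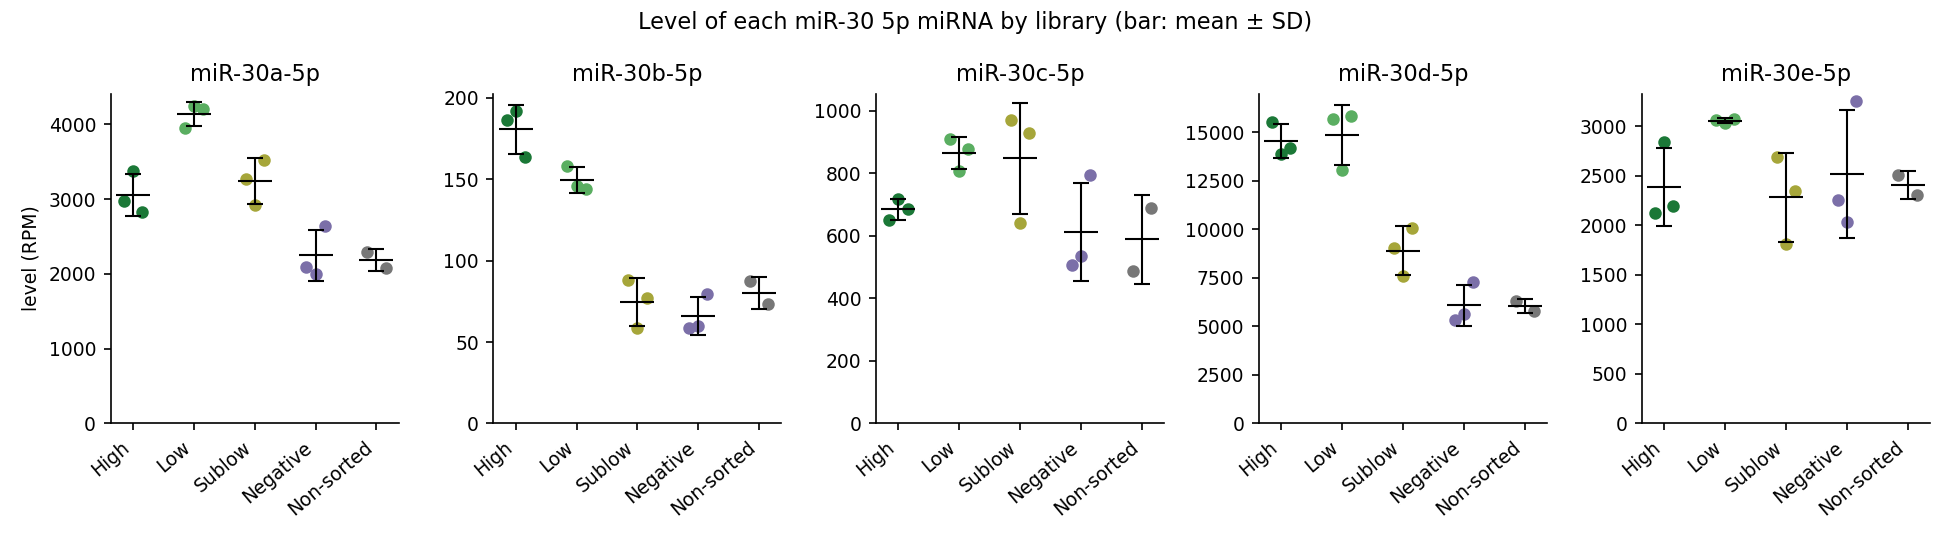
Level in RPM (linear axis from 0) of each miR-30 5p miRNA in each library, with points for libraries and bars for the mean ± SD of 3 libraries (2 for Non-sorted). miR-30d falls from about 14529 RPM in High to 6088 RPM in Negative on this scale, whereas the miR-30e ranges of High, Sublow and Negative overlap; under quantile normalization the miR-30d difference of Negative minus Sublow turns to 0.22.

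Among the 4 sorted populations, miR-30a, miR-30b and miR-30d differed and miR-30c and miR-30e did not pass the test. The adjusted p values of limma's moderated F test were 2.47e-04 for miR-30a, 3.13e-05 for miR-30b, 9.93e-06 for miR-30d, 0.0897 for miR-30c and 0.167 for miR-30e (Benjamini-Hochberg over 588 entries, threshold 0.05). These 3 of 5 members called stand beside 72.3% of all entries called, so the count is near the background. After median-ratio rescaling, miR-30a was no longer called (adjusted p = 0.66) and miR-30e was (adjusted p = 0.0273). With the total without the 3 abundant miRNAs, miR-30d was no longer called (adjusted p = 0.194) and the other 4 members were. Without the third Negative library, all 5 members were called.

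High and Low differed in 1 member. miR-30a was lower in High, 3058 ± 282 RPM against 4133 ± 160 RPM (SD, n = 3 each), a log2 difference of -0.44 (SE 0.12, adjusted p = 0.0163 by limma) that kept its sign under each rescaling. For all entries, 20.1% were called lower in this comparison and the median log2 difference was -0.11. miR-30b (0.27), miR-30c (-0.34), miR-30d (-0.03) and miR-30e (-0.37) did not pass. The miR-30a call ended after median-ratio rescaling (-0.11, adjusted p = 0.538), after quantile normalization (adjusted p = 0.105) and without the third High or the third Low library (adjusted p up to 0.0632). After median-ratio rescaling the 1 member called was instead miR-30b, higher in High (0.59, adjusted p = 0.0286), and after quantile normalization miR-30d, also higher (0.36, adjusted p = 0.0332). Among the Combo libraries, 2 High against 2 Low libraries gave -0.42 for miR-30a and 0.38 for miR-30b.

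Between Sublow and Low, 3 of 5 members were called lower in Sublow, beside 24.3% of all entries. The median log2 difference over all entries was -0.43. miR-30e (-0.44, adjusted p = 0.0838 by limma) and miR-30c (-0.05) were lower too but did not pass. miR-30b fell by 1.01 on the log2 scale (SE 0.18, adjusted p = 0.0011), from 149 ± 7.86 to 74.7 ± 14.9 RPM (SD, n = 3 each). It was also called after median-ratio rescaling (-0.61, adjusted p = 0.0235) and quantile normalization (-0.82), but not with the total without the 3 abundant miRNAs (-0.50, adjusted p = 0.0675). miR-30d fell by 0.74 (SE 0.14, adjusted p = 0.00127), was called after quantile normalization (-0.37, adjusted p = 0.0258), and did not pass after median-ratio rescaling (-0.35, adjusted p = 0.0922) or with the total without the 3 abundant miRNAs (-0.23, adjusted p = 0.272). miR-30a fell by 0.35 (SE 0.12, adjusted p = 0.0366) in RPM and was not called under any of the rescalings, at 0.04 (median-ratio), -0.06 (quantile) and 0.16 (with the total without the 3 abundant miRNAs). Its call ended in 5 of 14 fits that left out 1 library (Low 1, 2 or 3, Sublow 1 or 2; highest adjusted p = 0.12) and with a lane term (adjusted p = 0.335). In the single lane that holds both populations, 2 Sublow libraries against 1 Low library gave -0.93 for miR-30b and -0.72 for miR-30d.

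Between Negative and Low, 4 of 5 members were called lower in Negative in RPM, beside 49.5% of all entries. The median over all entries was -0.90. miR-30d fell by 1.30 (SE 0.14, 95% interval -1.59 to -0.996, adjusted p = 6.07e-06), miR-30b by 1.17 (SE 0.18, adjusted p = 1.27e-04), miR-30a by 0.89 (SE 0.12, adjusted p = 3.89e-05) and miR-30c by 0.53 (SE 0.20, adjusted p = 0.0366). Relative to the median of all entries, miR-30d stood at -0.39 and miR-30b at -0.27, whereas miR-30a stood at 0.01, miR-30c at 0.38 and miR-30e at 0.59. None of these 4 calls held under every rescaling. The miR-30d difference was -0.42 after median-ratio rescaling (adjusted p = 0.0256), -0.15 after quantile normalization (adjusted p = 0.298) and -0.31 with the total without the 3 abundant miRNAs (adjusted p = 0.0917). The miR-30b difference was -0.31 (adjusted p = 0.19), -0.98 (adjusted p = 0.00249) and -0.20 (adjusted p = 0.388) in the same order. For miR-30a the values were -0.01, -0.51 and 0.10, of which the quantile value was called (adjusted p = 0.00608). For miR-30c they were 0.35, -0.21 and 0.46, none of them called. miR-30e, at -0.31 in RPM (adjusted p = 0.157), was higher in Negative after median-ratio rescaling (0.57, adjusted p = 0.0234) and with the total without the 3 abundant miRNAs (0.67, adjusted p = 0.0147). The miR-30c call ended in 5 of 14 fits that left out 1 library (highest adjusted p = 0.138, without the first Negative library). The lane shared by 1 Negative and 1 Low library gave -1.10 for miR-30d, -0.98 for miR-30b and 0.09 for miR-30e.

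Between High and Sublow, 2 of 5 members were called higher in High, beside 28.1% of all entries. The median over all entries was 0.07. miR-30b was 1.28 higher on the log2 scale (SE 0.18, adjusted p = 1.06e-04), 180 ± 15.04 against 74.7 ± 14.9 RPM (SD, n = 3 each), and was called under every rescaling tried, at 1.21, 1.18 and 0.72. miR-30d was 0.72 higher (SE 0.14, adjusted p = 0.00103) and kept its sign under each rescaling, with a value of 0.15 (adjusted p = 0.386) for the total without the 3 abundant miRNAs. miR-30a (-0.08), miR-30c (-0.29) and miR-30e (0.07) did not pass in RPM. With the total without the 3 abundant miRNAs, miR-30a (-0.65, adjusted p = 9.25e-04) and miR-30c (-0.85, adjusted p = 0.00891) were called lower in High. With a lane term, which links these populations through the Low libraries, miR-30b stood at 1.33 (adjusted p = 0.00556) and miR-30d at 0.73 (adjusted p = 0.0188).

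Between High and Negative, 3 of 5 members were called higher in High in RPM, beside 43.9% of all entries. The median over all entries was 0.57. miR-30b was 1.44 higher (SE 0.18, adjusted p = 2.26e-05) and miR-30d 1.27 higher (SE 0.14, adjusted p = 6.01e-06), and both were called after median-ratio rescaling (0.90 and 0.72) and quantile normalization (1.34 and 0.50). With the total without the 3 abundant miRNAs they were not called, at 0.42 (adjusted p = 0.0599) and 0.23 (adjusted p = 0.155). miR-30a was 0.45 higher (SE 0.12, adjusted p = 0.00539) but -0.10 after median-ratio rescaling, 0.19 after quantile normalization (adjusted p = 0.234) and -0.58 with that total (adjusted p = 0.00155), and its call ended with a lane term (adjusted p = 0.386). miR-30e stood at -0.06 in RPM (95% interval -0.47 to 0.35) and at -0.61 after median-ratio rescaling (adjusted p = 0.0131). With that total, miR-30e (-1.09, adjusted p = 4.7e-04) and miR-30c (-0.84, adjusted p = 0.00747) were lower in High.

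**Figure D2:**
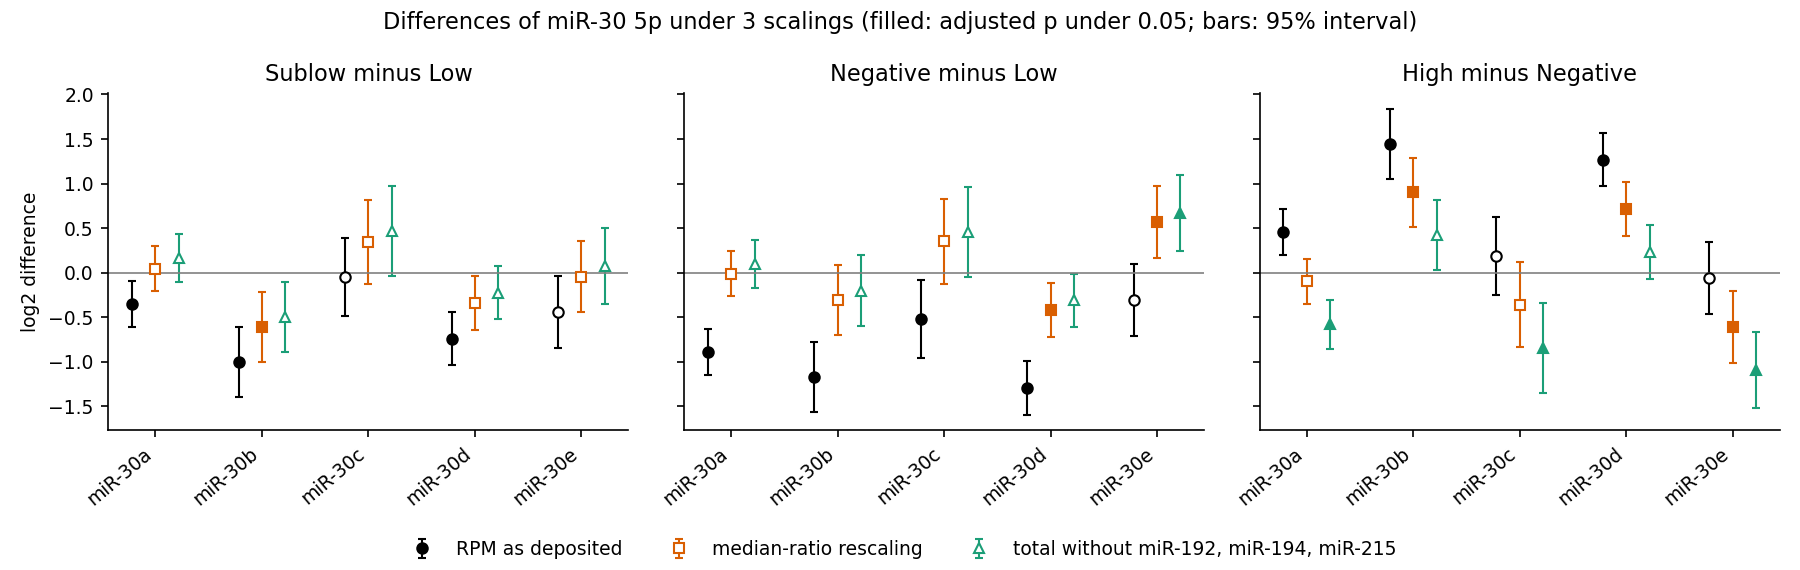
Log2 difference (y axis) of each miR-30 5p miRNA in 3 comparisons under 3 scalings, with 95% intervals as bars and filled symbols for an adjusted p under 0.05. These 3 scalings use 1 factor per library, so they shift all members together and keep their order. In Negative minus Low, miR-30a moves from -0.89 to 0.10 and miR-30e from -0.31 to 0.67. Quantile normalization, not shown, changes the order. In Negative minus Low, miR-30b is then lowest at -0.98, and miR-30d, lowest in RPM, stands above the member median of -0.21.

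Between Negative and Sublow, 2 of 5 members were called lower in Negative in RPM, beside 26.9% of all entries. The median over all entries was -0.37. miR-30d fell by 0.55 (SE 0.14, adjusted p = 0.00752) but stood at 0.22 after quantile normalization, and miR-30a fell by 0.53 (SE 0.12, adjusted p = 0.00384) and was also called after quantile normalization (-0.45, adjusted p = 0.0235). miR-30e was at 0.13 in RPM and at 0.61 after median-ratio rescaling (adjusted p = 0.0302). Both calls for lower members ended after median-ratio rescaling, where miR-30a stood at -0.06 and miR-30d at -0.07, and with the total without the 3 abundant miRNAs, at -0.068 and -0.085. miR-30e was higher in Negative with that total too (0.60, adjusted p = 0.0436). Within the 2 lanes that hold both populations, miR-30d gave -0.39 and -0.47, and miR-30e 0.37 and 0.25.

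Non-sorted cells and Negative cells were not told apart in any member. Of the 5 members, 0 were called by limma, 0 had an unadjusted p under 0.05, and 3.74% of all entries were called. The differences ranged from -0.05 for miR-30c to 0.28 for miR-30b, whose 95% interval was -0.16 to 0.72.

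Ratios between members within a library do not depend on any factor that scales the whole library, and show which members moved apart in RPM. Quantile normalization is not such a factor and can change them, and the ratios were not tested under it. In Negative minus Sublow, miR-30d stood at -0.55 and miR-30e at 0.13 in RPM. Quantile normalization changed the sign of the miR-30d difference, as given above, while the highest member stood at 0.25. A ratio between 2 miRNAs also carries differences in how well each is captured, so only its change between populations is compared. Of 10 ratios, 9 differed among the 12 sorted libraries by an exact permutation test (369600 assignments, upper tail of an F statistic, adjusted over 21 tests of single values). The 10 ratios are built from the same 5 members and are not independent. Among all entries, 72.3% differed among the sorted populations by limma. No such share was computed for ratios of other miRNAs, so the count of 9 has no background of its own. The ratio of miR-30a to miR-30c alone did not pass (adjusted p = 0.11). Libraries of 1 replicate number share a code in the labels, whose meaning is not given; with labels exchanged only within a number, 8 ratios passed, and miR-30a to miR-30e was the one lost.

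miR-30d and miR-30e moved apart most visibly among the abundant members. The log2 ratio of miR-30d to miR-30e was 2.62 ± 0.297 in High, 2.27 ± 0.146 in Low, 1.97 ± 0.195 in Sublow and 1.29 ± 0.162 in Negative (SD, n = 3 each; exact permutation test, adjusted p = 0.00159). This is 6.14 reads of miR-30d per read of miR-30e in High and 2.45 in Negative. The Negative libraries (1.16 to 1.47) lay below all other sorted libraries, and the Non-sorted mean was 1.33. In the lanes shared by both populations, Negative minus Sublow was -0.76 and -0.72.

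miR-30b, the rarest member, changed against each of the others. Its log2 ratio to miR-30e was -3.71 ± 0.193 in High, -4.35 ± 0.0722 in Low, -4.91 ± 0.0042 in Sublow and -5.21 ± 0.137 in Negative (SD, n = 3 each; exact permutation test, adjusted p = 4.55e-04, from a raw p of 6.49e-05, the smallest the test can give). No sorted populations overlapped in this ratio, whereas the Non-sorted libraries (-4.83 and -4.96) lay on either side of the Sublow ones. Its ratio to its neighbour miR-30d changed less, from -6.32 ± 0.136 in High to -6.62 ± 0.147 in Low, -6.89 ± 0.195 in Sublow and -6.50 ± 0.0341 in Negative (exact permutation test, n = 3 each, adjusted p = 0.015). Without the second High library that call ended (adjusted p = 0.0714).

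miR-30a and miR-30e, with a single base between them, also moved apart. Their log2 ratio was 0.37 ± 0.118 in High, 0.43 ± 0.0625 in Low, 0.52 ± 0.214 in Sublow and -0.14 ± 0.143 in Negative (SD, n = 3 each; exact permutation test, adjusted p = 0.015). The call ended when labels were exchanged only within a replicate number (exact permutation test, adjusted p = 0.0589). Each Negative library lay below 0 and each High, Low and Sublow library above it, and both Non-sorted libraries were below 0 as well. Within 2 shared lanes, Negative minus Sublow was -0.74 and -0.76. How reads were assigned between 2 such near-identical sequences is not given in the sources used here.

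**Figure D3:**
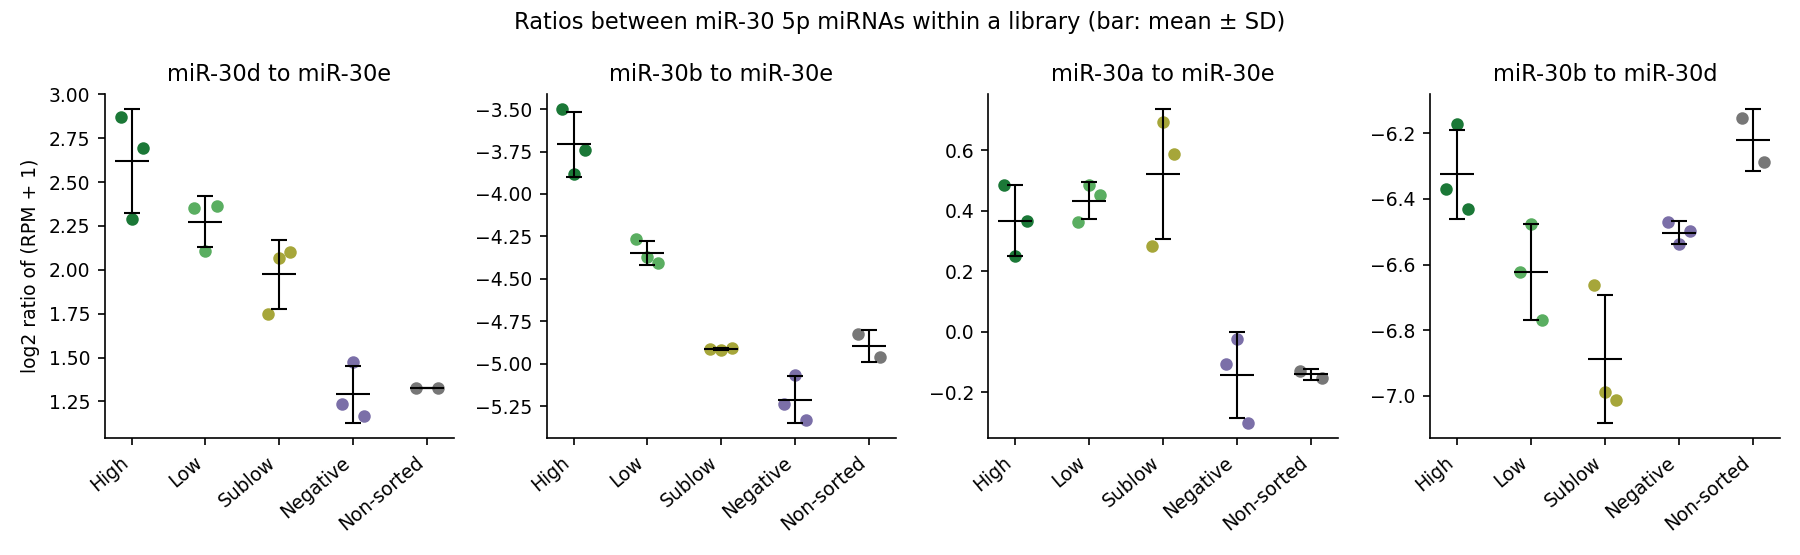
Log2 ratio of (RPM + 1) between pairs of miR-30 5p miRNAs in each library, with points for libraries and bars for the mean ± SD (3 libraries, 2 for Non-sorted). The ratio of miR-30d to miR-30e steps down from 2.62 in High to 1.29 in Negative, and that of miR-30a to miR-30e is below 0 only in the Negative and Non-sorted libraries.

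As shares of the family total, these changes gave a family with less miR-30d and more miR-30e in Negative. miR-30d was 69.7% ± 3.24 of the family in High, 64.3% ± 2.57 in Low, 58.0% ± 1.58 in Sublow and 52.9% ± 1.78 in Negative (SD, n = 3 each), with 53.4% ± 0.701 in Non-sorted (n = 2). miR-30e was 11.4% ± 1.86 in High, 13.3% ± 0.826 in Low, 14.8% ± 1.67 in Sublow and 21.7% ± 1.71 in Negative (SD, n = 3 each). miR-30a took 14.7% ± 1.21 in High and 21.2% ± 1.11 in Sublow, and miR-30b stayed under 1% of the family in every library. These shares add up to a fixed total, so they were not tested beside the ratios.

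**Figure D4:**
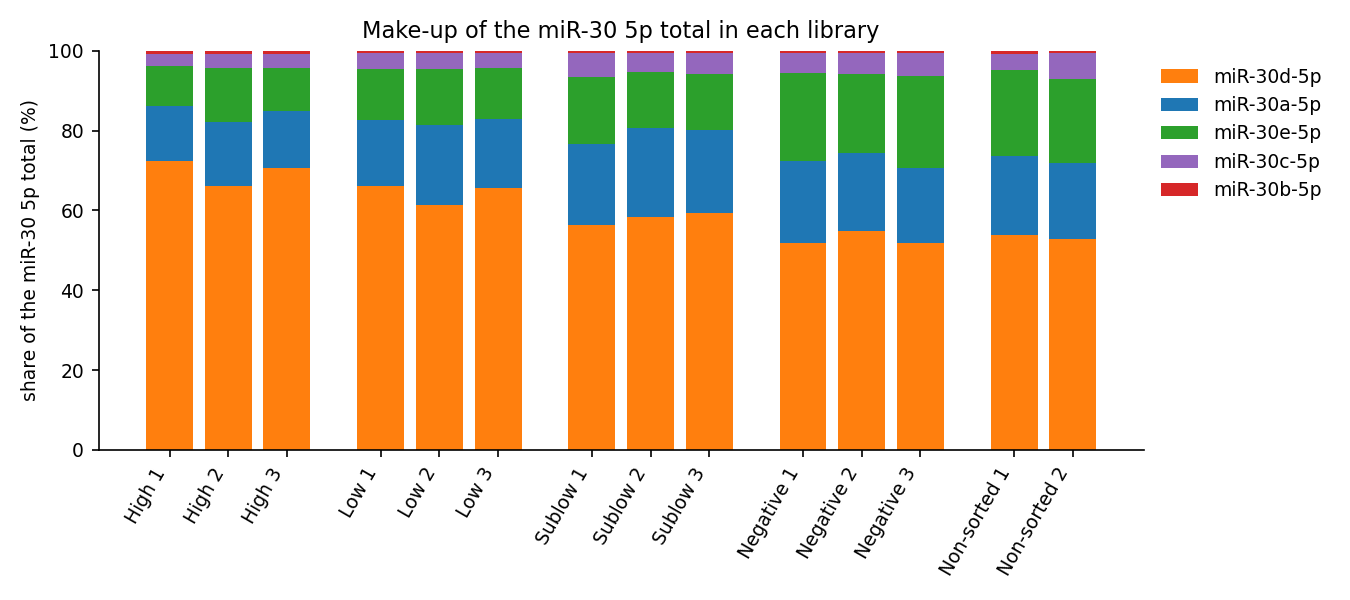
Share (%) of the miR-30 5p total taken by each member in each of the 14 libraries, as stacked bars to 100%. The miR-30d part shrinks from 69.7% in High to 52.9% in Negative on average, and the miR-30e part grows from 11.4% to 21.7%.

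The opposite strands, 4 of them shown above by sequence, were rarer than their 5p strands on average in each population, and all 6 were tested. The gap was smallest for miR-30b, with 93.1 RPM of the 3p against 180 RPM of the 5p strand on average in High and 33.3 against 66.2 RPM in Negative. miR-30e-3p was the most abundant, at 322, 276 and 327 RPM in High, 449, 480.03 and 425 RPM in Low, 439, 418 and 541 RPM in Sublow, and 367, 376 and 424 RPM in Negative. Every High library was below every library of the other sorted populations. High minus Sublow was -0.59 on the log2 scale (SE 0.12, adjusted p = 0.00193 by limma), called lower under every rescaling and with a lane term (adjusted p = 0.0452). Over all entries, 22.4% were called lower in High than in Sublow. Against Negative it stood at -0.34 (adjusted p = 0.0319), lower under each rescaling, but was not called with a lane term (adjusted p = 0.11).

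miR-30b-3p followed its 5p strand. It measured 82.0, 100.65 and 96.7 RPM in High, 106, 63.9 and 90.2 RPM in Low, 35.5, 35.6 and 45.2 RPM in Sublow, and 24.8, 30.1 and 45.1 RPM in Negative. High and Low overlapped and both lay above all Sublow and Negative libraries. It was 1.25 higher in High than in Sublow (SE 0.25, adjusted p = 0.00137), and this was called under each rescaling (0.69 to 1.18) and with a lane term (1.55, adjusted p = 0.0258). Its 5p to 3p ratio did not pass the test between populations (adjusted p = 0.868).

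The miR-30c 5p strand averaged 685 RPM in High, 865 RPM in Low, 848 RPM in Sublow and 613 RPM in Negative. miR-30c-2-3p instead fell in mean at each step of this order. It measured 61.8, 34.1 and 63.4 RPM in High, 41.5, 29.7 and 50.2 RPM in Low, 22.3, 28.7 and 34.7 RPM in Sublow, and 11.7, 14.04 and 15.6 RPM in Negative, the Negative libraries being lowest. It was 1.83 higher in High than in Negative (SE 0.30, adjusted p = 2.09e-04) and was called under each rescaling (0.85 to 1.30), but not with a lane term (1.70, adjusted p = 0.0669). The log2 ratio of miR-30c 5p to it was 3.72 ± 0.554 in High, 4.41 ± 0.308 in Low, 4.84 ± 0.486 in Sublow and 5.35 ± 0.215 in Negative (SD, n = 3 each; exact permutation test, adjusted p = 0.015). The 5p reads come from both miR-30c hairpins, so this is not the ratio of 1 hairpin. The strand of the other miR-30c hairpin, miR-30c-1-3p, averaged 18.8 ± 3.42 RPM in High and 37.7 ± 12.4 RPM in Low (SD, n = 3 each). It was 0.92 lower in High on the log2 scale in RPM (adjusted p = 0.0263), lower under each rescaling, and not called after median-ratio rescaling (-0.61, adjusted p = 0.135) or quantile normalization (-0.89, adjusted p = 0.0545).

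miR-30a-3p averaged 201 ± 39.3 RPM in High, 262 ± 6.35 RPM in Low, 179.6 ± 27.9 RPM in Sublow and 125 ± 18.2 RPM in Negative (SD, n = 3 each), in the same order of means as its 5p strand apart from High and Sublow, which overlapped for both strands. Negative minus Low was -1.08 (adjusted p = 2.83e-04), below 0 under each rescaling but not called after median-ratio rescaling (-0.21, adjusted p = 0.353) or with the total without the 3 abundant miRNAs (-0.099, adjusted p = 0.655). miR-30d-3p was listed at 0 in 1 Sublow and 1 Non-sorted library and reached at most 28.5 RPM elsewhere. It measured 21.3 to 28.02 RPM in High and 9.25 to 28.46 RPM in Low. In Sublow and Negative it was low, at most 6.67 and 6.31 RPM. The smallest listed value of a library ranged from 0.62 to 5.55 RPM. Of the 6 ratios of 5p to 3p strands, 2 differed between populations, that of miR-30c-2 above and that of miR-30d (exact permutation test, adjusted p = 0.0373). The latter rests on those low 3p values and ended with a pseudocount of 10 (adjusted p = 0.138).

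**Figure D5:**
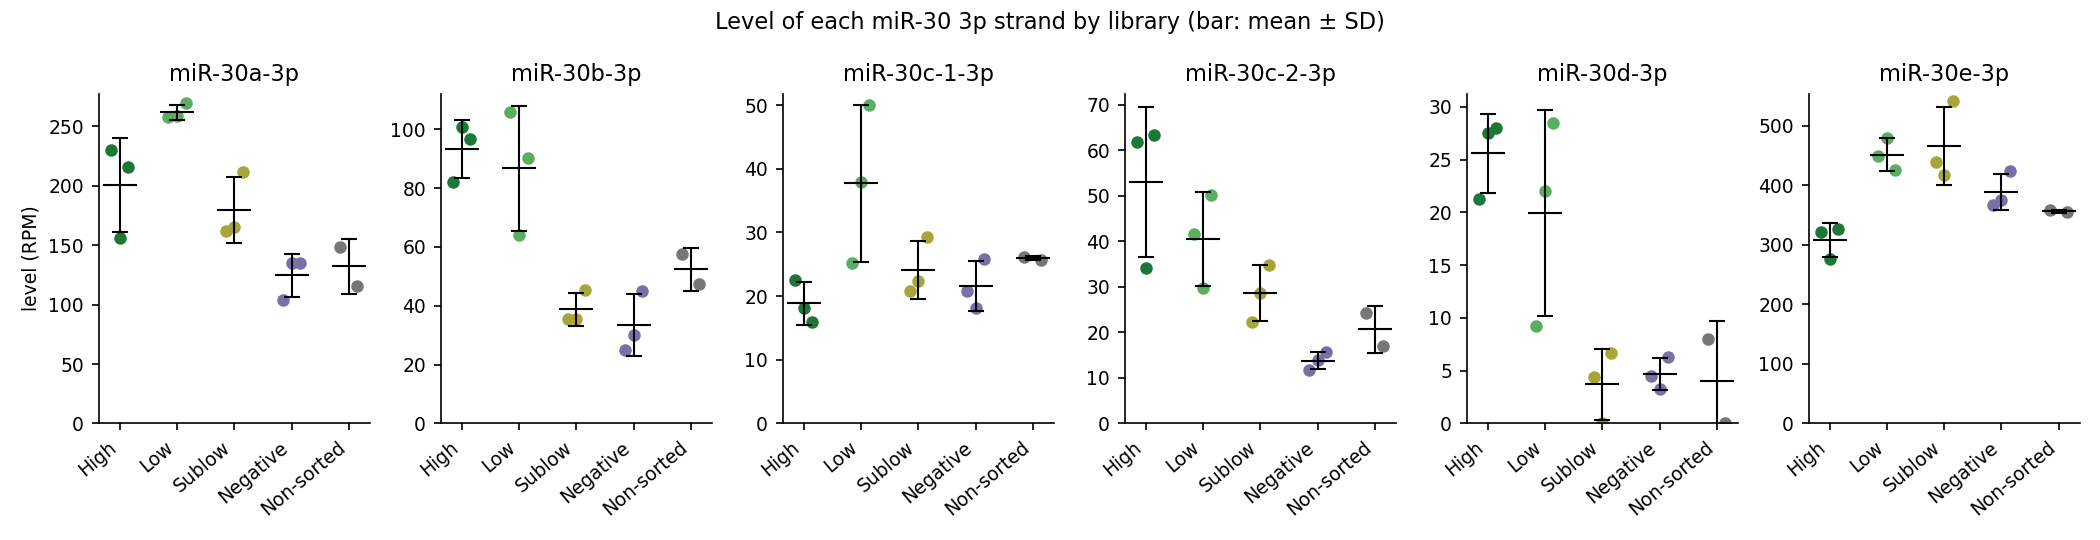
Level in RPM (linear axis from 0) of each miR-30 3p strand in each library, with points for libraries and bars for the mean ± SD (3 libraries, 2 for Non-sorted). miR-30e-3p is lowest in High, whereas miR-30b-3p and miR-30c-2-3p are lowest in Negative; under each rescaling High stays below Sublow for miR-30e-3p and above it for miR-30b-3p.

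Entries with a shifted start were a small part of each member. The 5p strands had 34 such entries, of which 9 passed the filter and 5 were at 0 in every library. A start 1 base downstream moves the seed by 1 base, as in the miR-30a and miR-30e forms below, which are shown because they were the most frequent shifts of these members; the shifted seed is in capitals and is the same in both.

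miR-30a-5p, 1 base downstream: gUAAACAUccucgacuggaag

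miR-30e-5p, 1 base downstream: gUAAACAUccuugacuggaag

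The form starting 1 base downstream was also the most frequent shift of miR-30d. It averaged 388 ± 14.8 RPM in High, 391 ± 38.9 RPM in Low, 230.2 ± 24.1 RPM in Sublow and 162 ± 26 RPM in Negative (SD, n = 3 each). High minus Negative was 1.27 for it (adjusted p = 1.3e-05), above 0 under each rescaling and 0.24 with the total without the 3 abundant miRNAs (adjusted p = 0.253). The corresponding miR-30e form averaged 106 ± 18.4 RPM in High, 162 ± 19.7 RPM in Low, 94.98 ± 12.6 RPM in Sublow and 101 ± 19.9 RPM in Negative (SD, n = 3 each), with Low above all other sorted libraries.

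The share of shifted starts differed between populations in 1 of 5 members. For miR-30a it was 3.999% ± 0.934 of all its 5p reads in High, 3.14% ± 0.268 in Low, 2.43% ± 0.226 in Sublow and 2.70% ± 0.387 in Negative (SD, n = 3 each; exact permutation test, adjusted p = 0.0104). The High libraries stood at 3.57%, 5.07% and 3.36%. The share includes the form starting 4 bases upstream, which was listed only in Combo libraries, as described below. With shifts by 1 base alone the High mean was 3.31% ± 0.242, and without the third Sublow library the call ended (adjusted p = 0.0526). The shares of miR-30b, miR-30c, miR-30d and miR-30e did not pass.

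The lane labels marked out 1 kind of shifted entry. Entries of miR-30 5p strands starting 4 bases upstream were listed in the 4 Combo libraries, at 30.97 to 195 RPM in sum, and were at 0 in the other 10 libraries. The highest sum, 195 RPM, belonged to the second High library, where the miR-30a form made 50.7 RPM beside 3375 RPM at the annotated start. Over all 104 entries with this shift, 39 to 77 were listed in the Combo libraries and 3 to 19 in the others, so this was not particular to miR-30. The form of miR-30a has the following sequence, with the displaced seed in capitals.

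miR-30a-5p, 4 bases upstream: cGACUGUAaacauccucgacuggaag

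miR-30b and miR-30d had the most similar levels over the 14 libraries among the pairs of members (Pearson r = 0.913 of log2 values, given as a description), and miR-30b and miR-30c the least (r = 0.361). The points share library depth and the population structure. Among 254 candidate entries at an annotated start outside the family, the nearest to miR-30d were miR-342-5p (r = 0.976), miR-200c-3p (r = 0.970), of the epithelial miR-200 family, and miR-26a-2-5p (r = 0.968). Nearest to miR-30b were miR-153-3p (r = 0.968), miR-92b-5p (r = 0.957), which averages only 7.56 RPM, and miR-27b-3p (r = 0.957). Nearest to miR-30a were miR-7a-1-3p (r = 0.945), miR-222-3p (r = 0.922) and miR-16-1-5p (r = 0.916). Those nearest to miR-30c were miR-16-1-5p (r = 0.832), its copy miR-16-2-5p (r = 0.830) and miR-7a-1-3p (r = 0.819). For miR-30e no entry came as close: miR-186-5p (r = 0.754), miR-29a-3p (r = 0.704) and miR-16-2-3p (r = 0.673).

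Other broadly expressed families gave the following counts in the same fit. In Negative minus Low, 8 of 8 let-7 members (without let-7e) were called lower, with a median of -1.13, as were 2 of 2 miR-26 members (median -0.99) and 1 of 2 tested miR-29 members (median -0.26), beside 4 of 5 miR-30 members (median -0.89) and the median of -0.90 over all entries. In High minus Negative, 7 of 8 let-7, 1 of 2 miR-26 and 0 of 2 miR-29 members were called higher, beside 3 of 5 miR-30 members. After median-ratio rescaling the Negative minus Low medians were -0.25 for let-7, -0.11 for miR-26 and 0.59 for miR-29. The let-7 and miR-26 lists share the libraries and the scale with miR-30, and no difference between families was tested.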

How the data were processed

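Small RNA from 14 libraries was prepared with the TriLink CleanTag kit, per the labels' protocols. The authors deposited 1 table of RPM values (reads in 1e+06 reads over the miRNA entries) for 2030 entries. The genome build mm9 is named in the submitters' processing notes, whereas aligner, mismatch settings and treatment of multi-mapping reads were not given in the sources used here. Signed suffixes of entry names, which no header defines, were taken as the offset of the first base from the annotated one. Every value column was matched to a sample by its name. At the estimated depths, between 69.1% and 84.1% of low values were whole reads within 0.1 read, so no count test was run.

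Values were analysed as log2(RPM + 1), which understates fold changes of low entries. Entries of at least 10 RPM in at least 3 libraries (588) entered 1 limma fit with 5 groups (limma 3.58.1, R 4.3.3, empirical Bayes with trend), two-sided, with Benjamini-Hochberg adjustment over all 588 and a threshold of 0.05. Within-library ratios and shares were tested by exact permutation of the 12 sorted libraries, adjusted over 21 tests (Python 3.11.15). Both were tested on simulated data. Plots used matplotlib 3.10.9. Named entries are the members, their 3p entries, shifted entries averaging at least 100 RPM in a group (the form starting 4 bases upstream was added after its values were seen), and the 3 entries most alike each member. The members, lists and tests were chosen with earlier results of these data known. Alternatives were other pseudocounts, filters and scalings, a lane term, a replicate block, other variance settings and leaving out each library.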

Additional observations from a re-analysis of the deposited data

How the results depend on the processing

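Of the 12 member differences that changed sign while called on at least 1 side, all came from a change of scale, and the cause beyond that was not tested. With the median-ratio rescaling they were Sublow minus Low for miR-30a (0.044), Negative minus Low for miR-30c (0.35) and miR-30e (0.57), and High minus Negative for miR-30a (-0.10). With quantile normalization they were High minus Low (0.36) and Negative minus Sublow (0.22) for miR-30d. With the total without miR-192, miR-194 and miR-215 they were Sublow minus Low for miR-30a (0.16), Negative minus Low for miR-30a (0.10), miR-30c (0.46) and miR-30e (0.67), and High minus Negative for miR-30a (-0.58) and miR-30c (-0.84). Counts of members called fell from 3 to 1 (median-ratio) and 0 (total without the 3 miRNAs) in Sublow minus Low, from 4 to 2, 2 (quantile) and 1 in Negative minus Low, and from 2 to 1 under each of the 3 in Negative minus Sublow. The 1 call in Negative minus Sublow was miR-30e, higher in Negative, except after quantile normalization, where it was miR-30a, lower. In Negative minus Low, 1 of the 2 median-ratio calls and the 1 call without the 3 miRNAs were miR-30e, higher in Negative. The single call in High minus Low was lost (0) with no filter and with no trend. An equal count can hold other members or directions: in High minus Negative the 3 calls without those miRNAs were all lower in High. Over all entries, the share of calls that were higher moved under median-ratio rescaling from 28.5% to 53.6% in High minus Low, 29.9% to 55.8% in Sublow minus Low, 25.0% to 50.9% in Negative minus Low, 66.2% to 52.9% in High minus Negative and 24.4% to 52.4% in Negative minus Sublow, and with the total without those miRNAs from 55.6% to 30.6% in High minus Sublow. Leaving out 1 library gave 3 to 5 members in the test among the 4 populations, 0 to 1 in High minus Low, 2 to 4 in Sublow minus Low, 3 to 5 in Negative minus Low, 8 to 10 of the ratios, 1 to 3 of the strand ratios and 0 to 2 of the shifted shares; where 1 Non-sorted library remained it was assumed to vary like the other groups. A pseudocount of 10 left 1 strand ratio. With a replicate block, 8 ratios (all but miR-30a to miR-30c and miR-30a to miR-30e) and 2 shifted shares were called, and no call of a member in the limma comparisons changed. Libraries of 1 replicate number share a code in the labels, whose meaning is not given. Of 18 same-number correlations of deviations, 14 exceeded 0.1 (median 0.564, lowest -0.354, against a median of -0.413 for different numbers), short of the rule that all do, so the pairing was kept as an alternative; 8 of 12 sorted libraries were most alike those of their own number. Depth limits the 3p strands and shifted forms near the listing limit, taken as about 10 reads, above all miR-30d-3p.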
